A study of Mus musculus with 96 samples.

Results

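The antioxidant response genes described here are 8 genes of the mouse expression table: Nfe2l2, which encodes the transcription factor NRF2, and 7 genes widely used as its targets, Nqo1, Hmox1, Gclc, Gclm, Txnrd1, Srxn1 and Gsr. They were chosen by symbol, and all 8 were found among the 21990 genes of the table. The islets and the liver of the same 48 male C57BL/6N mice were measured by RNA sequencing. The mice were bought at 4 weeks of age and were fed either chow diet (CD, LabDiet 5001, 13.5% fat) or high-fat diet (HFD, Research Diets D12492, 60% fat), with 4 mice per diet at each of weeks 4, 8, 12, 16, 20 and 24. No mouse carried an engineered allele. CD and HFD were products of different makers, so that fat content and the other ingredients cannot be told apart, and the week on the diet rises together with the age of the mouse.

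NRF2 is normally held in the cytoplasm and sent to degradation by the adaptor Keap1. When reactive electrophiles or oxidants modify Keap1, NRF2 builds up, pairs with a small Maf protein and binds antioxidant response elements in front of its target genes, a site for which Bach1 competes. The targets then restore the reducing power of the cell. Gclc and Gclm make the rate-limiting enzyme of glutathione synthesis, and Gsr regenerates reduced glutathione. Txnrd1 keeps thioredoxin reduced and Srxn1 repairs over-oxidised peroxiredoxins, while Nqo1 reduces quinones and Hmox1 breaks down heme. The liver expresses this programme strongly as part of its detoxifying role, whereas beta cells are known for a modest antioxidant defence.

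The promoter sequences are shown because the NRF2 response is defined by a sequence element. RefSeq promoter windows (GRCm38.p6) matched 5 of the 8 genes, with 7 windows in all, of which the 250 bases before the start were read. The window of Srxn1, the gene with the smallest p of its mean diet effect in liver, lies at chr2:152105274-152105523 on the plus strand, and that of Nfe2l2 at chr2:75704664-75704913 on the minus strand. Capitals mark a match to the element in 1 of 2 spellings, TGACNNNGC or TGANTCAGC, on either strand. The second spelling was added after the windows had been read, and Srxn1 matched only that one. Both windows are printed 5' to 3' on the strand of the gene.
Srxn1: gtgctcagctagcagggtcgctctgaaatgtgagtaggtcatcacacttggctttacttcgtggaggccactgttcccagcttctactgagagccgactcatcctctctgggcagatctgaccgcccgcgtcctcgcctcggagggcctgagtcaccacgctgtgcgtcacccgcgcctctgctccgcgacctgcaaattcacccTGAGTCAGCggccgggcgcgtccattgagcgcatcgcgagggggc
Nfe2l2: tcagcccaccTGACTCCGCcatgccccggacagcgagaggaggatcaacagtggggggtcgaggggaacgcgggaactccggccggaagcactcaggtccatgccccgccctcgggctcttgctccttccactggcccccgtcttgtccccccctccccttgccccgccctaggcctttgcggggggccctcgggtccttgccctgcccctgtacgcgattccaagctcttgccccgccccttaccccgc

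In Srxn1 the capitals read TGAGTCAGC, with the first base 45 bases before the start, and in Nfe2l2 they read TGACTCCGC, 240 bases before it. Gclm held a match on the opposite strand 134 bases before its start, and the second of the 3 windows of Txnrd1 held one 92 bases before its start. Nqo1 held neither spelling in its window. In all, 5 spellings were searched on both strands. TGACNNNGC is found in 10.2% of the 32851 windows of this length in the table, and TGANTCAGC, which was added after the windows had been read, in 1.02%. The other 3 were the looser TGANNNNGC (35.2%), which contains both, TGAGTCA (4.46%), found in Srxn1 alone among the members at 102 and 45 bases before the start, and TGACTCAGC (0.39%), found in none of them. A match says only that these letters stand in the window.

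On chow, the 8 genes differed widely in level (FPKM, fragments scaled to transcript length and to the number of mapped fragments, mean ± SD of 24 mice). In liver the 2 subunits of the glutathione-synthesis enzyme were the most abundant, Gclc at 63.5 ± 21.8 and Gclm at 63.1 ± 8.38, which lay within their spread of each other. Txnrd1 followed at 34.7 ± 3.75, then Nfe2l2 at 20.5 ± 4.17 and Gsr at 18.3 ± 2.13, again within their spread of each other, Srxn1 at 11.7 ± 1.27, Hmox1 at 9.32 ± 6.16, whose spread includes the level of Srxn1, and Nqo1 at 2.65 ± 0.652. In islets Txnrd1 led at 34.7 ± 3.26, ahead of Gclm at 21.4 ± 2.79 and Srxn1 at 19.2 ± 2.16, which lay within their spread of each other. Gsr at 15.2 ± 1.46 and Nfe2l2 at 14.4 ± 1.87 also lay within their spread of each other, followed by Gclc at 9.42 ± 1.12, Hmox1 at 3.69 ± 0.957 and Nqo1 at 2.95 ± 0.582, the last pair again overlapping. Spread here is the SD between mice, and the levels of different genes were not tested against each other. All 8 genes reached 1 FPKM in all 48 libraries of each tissue.

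The 2 tissues divided the genes differently. On the log2(FPKM + 1) scale, chow liver exceeded chow islets by 2.57 for Gclc (SE 0.088, limma, adjusted p 3.4e-42), 1.52 for Gclm (SE 0.038), 1.01 for Hmox1 (SE 0.099), 0.46 for Nfe2l2 (SE 0.067) and 0.25 for Gsr (SE 0.04), whereas Srxn1 was lower in liver by -0.67 (SE 0.054). Nqo1 (-0.12) and Txnrd1 (0.00) did not pass the test. With 6 of 8 genes called against 93.9% of all genes tested, a call here says little about the members. The levels also depend on how libraries are scaled, because the FPKM of insulin fill most of an islet library. The median of all genes in this comparison was -0.53 as deposited, -1.88 with the 2 insulin genes left out and 0.10 under median ratio scaling. Gclc was higher in liver under all 3 (1.16 with insulin left out). With insulin left out Hmox1 (-0.27), Nfe2l2 (-0.97) and Gsr (-1.19) were lower in liver and Gclm (0.06) was not called. Under median ratio scaling Srxn1 (0.04) was not called.

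The libraries matched their labelled tissue by marker genes. The summed FPKM of 8 beta cell markers ran from 575200 to 992100 in islets, and that of 9 hepatocyte markers from 37000 to 79700 in liver. In liver Ins2 averaged 209 ± 596 FPKM in CD and 22.5 in HFD, carried by a few libraries, while Slc2a2, a beta cell marker that hepatocytes also express, was at 88.9 ± 18.3 and 102. Acinar markers summed to between 2937 and 88010 in islets. Read counts and depths were not used here, so that the sampling error of single values is unknown.

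In liver, HFD raised 5 of the 8 genes on average over the 6 weeks (limma on all 48 liver libraries, adjusted p under 0.05), namely Srxn1, Hmox1, Gclc, Nfe2l2 and Nqo1, and none was lower. For comparison, 35.8% of the 10879 genes tested were called higher. The median change of the 8 genes was 0.32 on the log2 scale, against 0.08 over all genes. Most liver genes shifted slightly upward in HFD, and 84.1% of the called genes were higher, but after median ratio scaling, which sets the typical gene near no change (median -0.02), the share was 45.5%. Under that scaling Srxn1, Hmox1, Gclc and Nfe2l2 kept their calls, while Nqo1 fell to 0.21 (adjusted p 0.1). It called 1943 of all 10879 genes higher and 2332 lower.

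**Figure D1:**
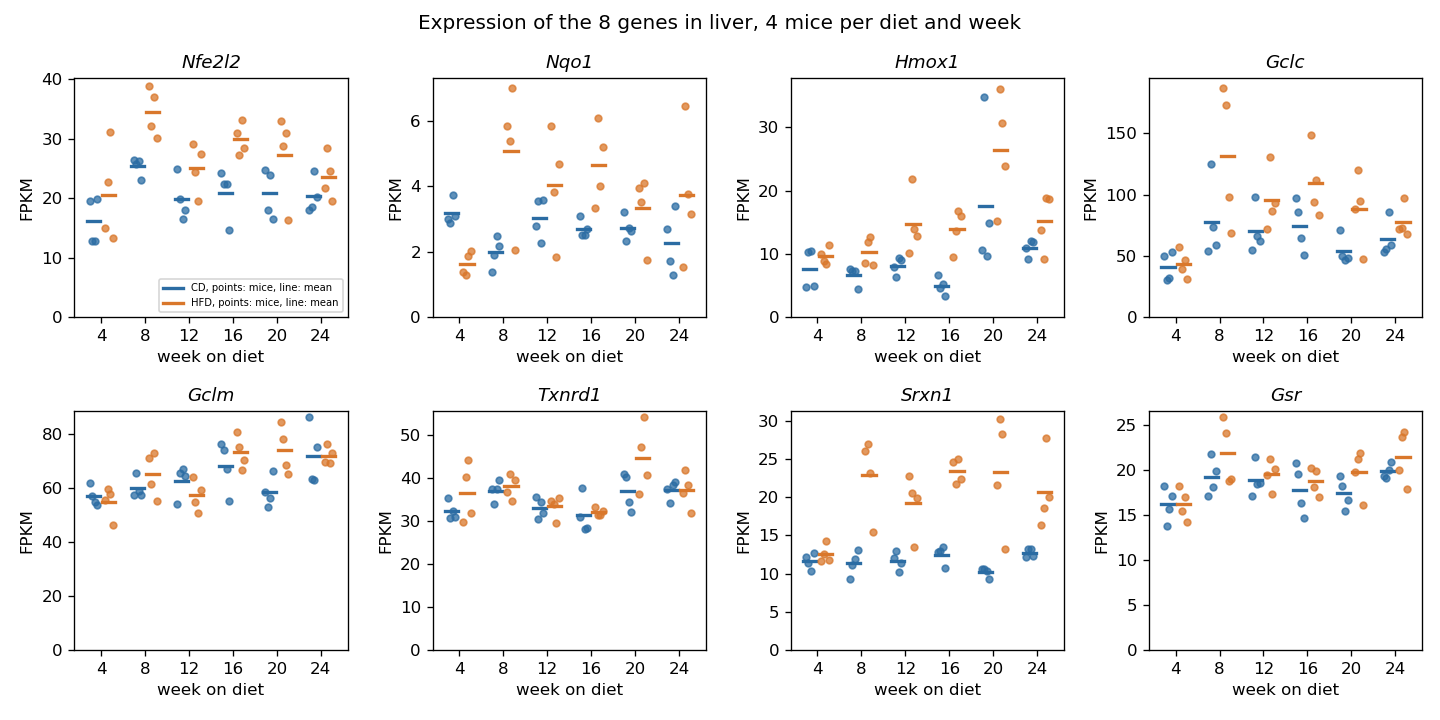
FPKM of the 8 genes in liver (vertical axes, from 0) by week on the diet (horizontal axes), with 1 point per mouse and a line at the mean of the 4 mice of a diet and week, CD in blue and HFD in orange. From week 8 on, every HFD point of Srxn1 lies above every CD point of its week, whereas the points of Gclm, Txnrd1 and Gsr overlap in every week.

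Srxn1, the sulfiredoxin that restores over-oxidised peroxiredoxins, gave the clearest difference. At week 4 the CD mice measured 12.2, 11.4, 10.3 and 12.7 FPKM and the HFD mice 11.6, 12.5, 14.3 and 11.7, so that the groups overlapped. At week 8 the CD livers had 9.31, 11.1, 11.9 and 13.0 and the HFD livers 26.1, 26.9, 23.1 and 15.5 FPKM. The groups were now apart, the lowest HFD value being that of mouse HFD217. The mean ratio of HFD to CD was 2.02, with a log2 difference of 0.93 (SE 0.17, adjusted p 0.015, limma), which missed the threshold only without HFD213 (0.05). At week 12 the CD values were 12.0, 13.0, 10.2 and 11.4 and the HFD values 22.7, 20.6, 13.5 and 19.9 FPKM. They did not overlap (log2 difference 0.65, SE 0.15, adjusted p 0.027), although the call was lost on leaving out CD307, CD308, HFD313, HFD315 or HFD318 (up to 0.089).

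At week 16 the mice of each diet lay close together in Srxn1, with 12.8, 13.0, 13.4 and 10.8 FPKM in CD and 24.6, 21.7, 25.0 and 22.4 in HFD. The ratio was 1.87 (log2 difference 0.86, SE 0.093, adjusted p 0.00073), and it passed whichever of the 8 libraries was removed. At week 20 the CD livers had 10.7, 10.6, 10.3 and 9.34 FPKM and the HFD livers 21.6, 30.2, 28.3 and 13.2, where mouse HFD518 was nearest to the CD mice. The ratio of 2.28 (log2 difference 1.05, SE 0.22, adjusted p 0.04) kept its call only without HFD518 (0.0024) when 1 library was left out and reached an adjusted p of 0.11 without HFD517. At week 24 CD mice had 12.2, 13.3, 13.2 and 12.3 FPKM and HFD mice 16.4, 18.6, 27.8 and 20.0. These groups did not overlap either, but the adjusted p of 0.087 did not pass the test. That p was 0.048 without HFD611 and 0.022 with all 12 groups in 1 fit, but 0.24 without CD601 and 0.11 under median ratio scaling.

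Srxn1 was thus called higher in 4 weeks, a count reached by 0.456% of the 10537 genes tested in liver in at least 1 week. Its mean effect was 0.70 on the log2 scale (SE 0.068, 95% interval 0.57 to 0.84, adjusted p 1.4e-10), the smallest p among the members, and 0.59 under median ratio scaling. The CD mean of a week stayed between 10.2 and 12.7 FPKM, while the HFD mean was 12.5 at week 4 and between 19.2 and 23.4 afterwards. An F test for any change of the diet effect between weeks gave an adjusted p of 0.11 (unadjusted 0.0039) and did not pass. Srxn1 passed this F test under median ratio scaling. Week 4 was not tested against the later weeks on its own.

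Hmox1, the inducible heme oxygenase, was higher in HFD on average in all 6 weeks. At week 16 the CD livers measured 6.67, 4.65, 5.22 and 3.39 FPKM and the HFD livers 9.54, 13.6, 16.8 and 16.1. The groups were apart, with a ratio of 2.81 (log2 difference 1.33, SE 0.2, adjusted p 0.0056), and the call held without any single library. At week 12 CD livers had 7.87, 6.34, 9.27 and 9.03 FPKM against 10.1, 21.9, 14.0 and 12.8 in HFD (log2 difference 0.74, SE 0.21, adjusted p 0.049). Of the 8 fits that left out 1 library, this call was kept only without HFD313, and the largest adjusted p was 0.1. It was also lost when all 12 groups shared 1 fit (0.073) and under median ratio scaling (0.096). At week 20 the values spread most, with 10.6, 34.9, 9.74 and 14.9 FPKM in CD and 15.2, 36.1, 30.7 and 24.0 in HFD. The CD mouse CD502 lay within the HFD range there, and the adjusted p was 0.5.

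The mean effect on Hmox1 in liver was 0.68 (SE 0.12, 95% interval 0.44 to 0.92, adjusted p 1.2e-05) and 0.57 under median ratio scaling. Hmox1 was the only member called for a change over the weeks in chow liver (F test, adjusted p 0.0011). Its week means lay between 4.98 and 17.5 FPKM, and 55.0% of all genes were called in this test. Gclm (adjusted p 0.057) and Gclc (0.064) fell short, and passed in 8 and 5 of the 48 fits that left out 1 library. Hmox1 is known to be expressed in macrophages, whose markers moved with the diet. Of 7 macrophage markers 7 were higher in HFD liver, and their summed level ran from 62.96 to 198.0 FPKM in CD (median 112.9) and from 70.58 to 398.5 in HFD (median 178.0), with no marker at 0 in all libraries. Of 5 Kupffer cell markers 2 were higher (1 under median ratio scaling), and of 6 fibroblast and stellate markers 6. Of 9 hepatocyte markers 3 were lower, Tat (-0.54), Fgb (-0.40) and Cps1 (-0.31), and 5 under median ratio scaling. Their part in the result was not tested. In bulk tissue, more cells of a type and more RNA per cell cannot be told apart, and the same holds for fewer cells and less RNA.

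Nfe2l2 itself was higher in HFD liver, by 0.35 on the log2 scale (SE 0.082, 95% interval 0.18 to 0.51, adjusted p 0.00068). At week 8 CD livers had 26.4, 25.8, 26.3 and 23.0 FPKM and HFD livers 38.8, 32.1, 37.0 and 30.01. These did not overlap, and the week was called (log2 difference 0.42, SE 0.095, adjusted p 0.033), but the call was kept only without HFD217 when 1 library was left out (up to 0.088), and it was lost when all 12 liver groups shared 1 fit (0.24). At week 16 the groups also stood apart, 24.2, 22.4, 22.4 and 14.6 FPKM against 30.9, 27.3, 33.1 and 28.4, with an adjusted p of 0.064. The ratio of HFD to CD lay between 1.16 and 1.43 in the 6 weeks.

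Gclc, the catalytic subunit of glutathione synthesis, had a mean effect of 0.46 (SE 0.12, 95% interval 0.22 to 0.69, adjusted p 0.0019). Yet in no single week did it pass (adjusted p from 0.19 to 0.87). At week 20 (adjusted p 0.28) it passed without HFD518 (0.021), while without HFD517 the adjusted p was 0.6. Mice of 1 group differed by a wide margin. At week 8, for example, CD livers measured 54.0, 125, 73.6 and 58.5 FPKM and HFD livers 187, 173, 98.4 and 68.6, so that the groups overlapped. The ratio of the means was above 1 in all 6 weeks, from 1.06 to 1.69.

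Nqo1, the quinone reductase, did not move one way throughout. At week 4 its values were 3.01, 2.87, 3.73 and 3.10 FPKM in CD and 1.38, 1.30, 1.86 and 2.01 in HFD. The groups did not overlap, at a ratio of 0.515, but the log2 difference of -0.67 (SE 0.12) had an adjusted p of 0.079. At week 8 the CD livers had 1.37, 1.91, 2.48 and 2.17 FPKM and the HFD livers 5.83, 5.37, 7.01 and 2.05. Only HFD217 fell within the CD range (ratio 2.55, adjusted p 0.083). That p was 0.0016 without HFD217 and 0.017 with all 12 groups in 1 fit, but 0.2 without HFD211 and 0.089 under median ratio scaling. At week 16 the CD values of 3.08, 2.51, 2.50 and 2.69 lay under the HFD values of 3.33, 6.09, 4.00 and 5.20, and the week was called (log2 difference 0.59, SE 0.15, adjusted p 0.038). That call was kept only without HFD411 when 1 library was left out (up to 0.12), and was lost when all 12 groups shared 1 fit (0.16) and under median ratio scaling (0.067). The mean effect was 0.30 (SE 0.11, 95% interval 0.08 to 0.51, adjusted p 0.022), and the test for a change between weeks gave an adjusted p of 0.094 (unadjusted 0.0028).

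Gclm, Txnrd1 and Gsr did not pass the test of the mean effect in liver. The mean effects were 0.06 (95% interval -0.02 to 0.15, adjusted p 0.25) for Gclm, the regulatory subunit of glutathione synthesis, 0.08 (-0.01 to 0.17, 0.13) for Txnrd1, the cytosolic thioredoxin reductase, and 0.09 (0.00 to 0.19, 0.1) for Gsr, the glutathione reductase. The intervals leave room for small increases, while under median ratio scaling the 3 values were -0.05, -0.03 and -0.02. Without HFD518 alone, Gsr passed (adjusted p 0.046). The annotated exons of Gclm share bases with those of a pseudogene on the same strand (Gm6061) and of an antisense transcript (Gm17494), so that its level is uncertain to that extent.

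Over the 48 pairs of a gene and a week in liver, 8 were called, all higher, where 4.12% of all such pairs were called higher. In 11 pairs every HFD mouse lay above every CD mouse, against 9.75% of all pairs, and in 1 pair, Nqo1 at week 4, every HFD mouse lay below, against 2.60%. A fit of all 12 groups also called 8 pairs, but not the same ones. Nfe2l2 at week 8, Hmox1 at week 12 and Nqo1 at week 16 dropped out, while Nqo1 at week 8, Gclm at week 20 (adjusted p 0.043) and Srxn1 at week 24 came in. At weeks 4, 12, 16, 20 and 24 that fit called 84, 1457, 948, 808 and 348 of all 10879 genes higher. These are more than the fits of single weeks called, while at week 8 it called slightly fewer. The equal count of 8 pairs therefore stands against more calls among all genes. Median ratio scaling left 6 pairs, and testing all genes without the filter on low FPKM left 4, those of Srxn1 at weeks 8, 12 and 16 and of Hmox1 at week 16. From week 4 to week 24 median ratio scaling called 1, 460, 563, 412, 185 and 50 genes higher, of 9875 to 10184 tested. Without the filter 1, 455, 625, 796, 75 and 60 genes were called higher, of 16681 to 17166 tested. Week 16 gave 3 of the calls (6.74% of all genes were called higher), weeks 8 (6.17%) and 12 (9.42%) gave 2 each and week 20 (1.73%) gave 1, whereas weeks 4 (0.0405%) and 24 (0.65%) gave 0. None of the 8 genes passed the test for a change of the diet effect between weeks in liver, where 1.46% of all genes did. An unadjusted p under 0.05 was reached by 2 of them and by 1606 of all 10879 genes. Without HFD217 there were 2 calls, and without HFD518 or HFD611 there was 1. Under median ratio scaling Nqo1 and Srxn1 passed.

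In islets no gene and week pair of 48 was called by limma on the FPKM as deposited (background 5.23% in either direction), with 5 pairs at an unadjusted p under 0.05. From week 4 to week 24 such a p was reached by 854, 3362, 1968, 2717, 3004 and 2734 genes, of 11286 to 11709 tested. The groups did not overlap in 1 pair with HFD higher (background 5.85%) and 1 pair with HFD lower (7.18%). These counts depend on the scaling, since 15 pairs were called with insulin left out, 8 at week 12 and 7 at week 16, all higher. Under that scaling 8326 of all 11284 genes tested were called higher at week 12, and 8344 of 11689 at week 16. On average over the 6 weeks 2 of the 8 genes were called, Nqo1 lower and Hmox1 higher, where 38.6% of all 12378 genes were called in either direction (16.6% higher, 22.0% lower). The members' median change was 0.03, against -0.01 over all genes.

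**Figure D2:**
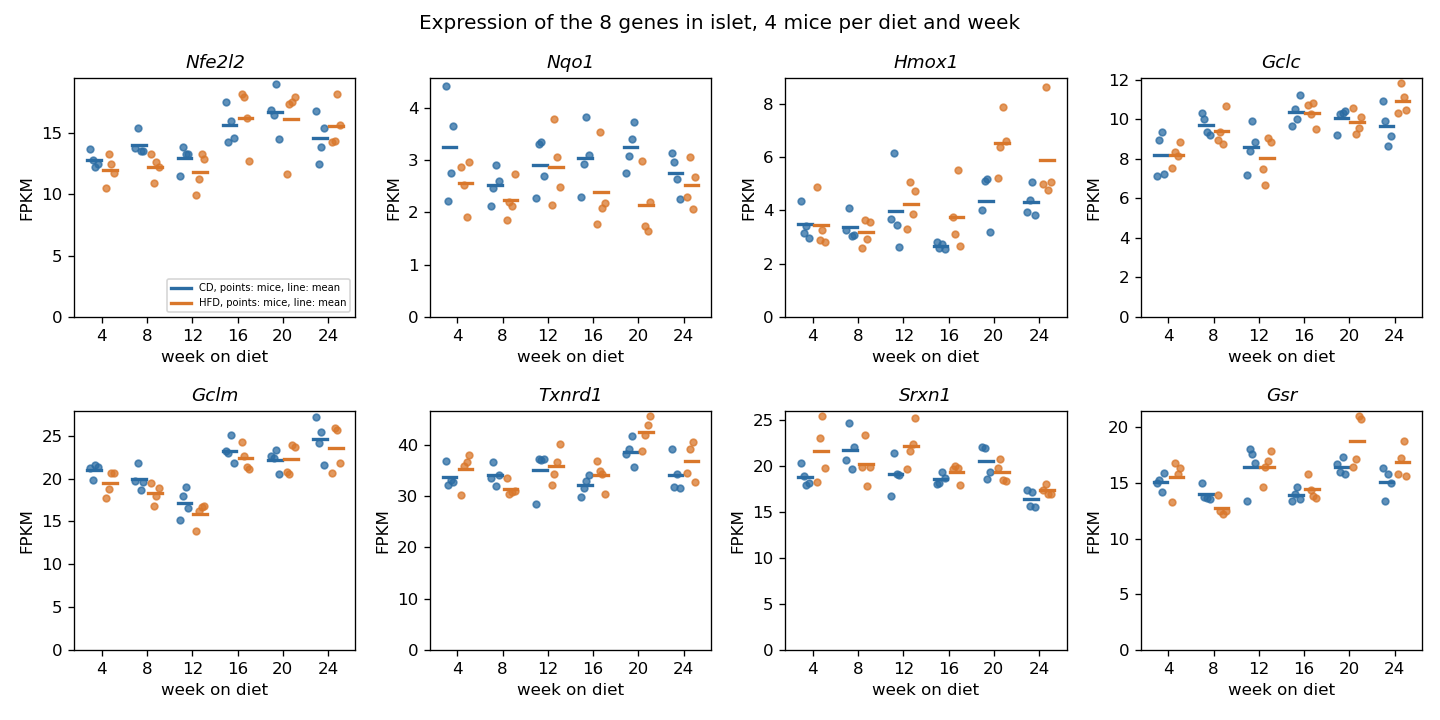
FPKM of the 8 genes in islets (vertical axes, from 0) by week on the diet (horizontal axes), with 1 point per mouse and a line at the mean of the 4 mice of a diet and week, CD in blue and HFD in orange. The groups overlap in 46 of the 48 pairs of a gene and a week, the exceptions being Nfe2l2 at week 8 (HFD lower) and Hmox1 at week 20 (HFD higher).

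Nqo1 in islets was lower in HFD by -0.20 on the log2 scale (SE 0.062, 95% interval -0.32 to -0.07, adjusted p 0.01), but with insulin left out the difference was -0.08 and was not called (adjusted p 0.41). Its mean was lower in HFD in all 6 weeks, at ratios from 0.66 to 0.988. The widest gap was at week 20, with 2.75, 3.08, 3.40 and 3.73 FPKM in CD and 2.99, 1.73, 1.65 and 2.19 in HFD. The adjusted p was 0.075, and HFD511 lay within the CD range. Without HFD511 the week passed (0.009), while without HFD517 the adjusted p was 0.21. Markers of other islet cells moved with the diet. All 4 alpha cell markers and both delta cell markers were lower in HFD islets, and of 8 beta cell markers 4 were higher (Ins1 0.23, Ins2 0.19, Iapp 0.35, Ucn3 0.29) and 2 lower (Slc2a2 -0.36, Mafa -0.30). With insulin left out 3 of the 6 beta cell markers tested were higher and 0 lower, so that Slc2a2 and Mafa lost their calls as lower. The summed alpha cell markers ran from 6693 to 15060 FPKM in CD (median 11840) and from 955.3 to 14310 in HFD (median 4236), and the delta cell markers from 2117 to 4757 and from 322.1 to 3919. Of 8 acinar markers 2 were lower (1 with insulin left out), and none of these genes was at 0 in all libraries. Their part in the result was not tested.

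Hmox1 in islets was higher by 0.20 (SE 0.071, 95% interval 0.06 to 0.34, adjusted p 0.024) and was called under every scaling (0.23 with median ratio scaling, 0.40 with insulin left out). At week 20 CD islets had 4.00, 5.11, 5.19 and 3.17 FPKM and HFD islets 5.21, 6.36, 7.87 and 6.58. These groups just did not overlap (adjusted p 0.074, 0.025 without HFD511 and 0.2 without HFD517). At week 4, by contrast, the ratio was 0.995. All 5 red blood cell markers, which include the hemoglobin genes, were higher in HFD islets as well, with sums from 73.4 to 326 FPKM in CD (median 161) and from 89.3 to 900.5 in HFD (median 315.3). Of 7 macrophage markers 2 were higher (5 under either other scaling), with summed levels from 54.73 to 114.3 and from 46.4 to 164.3. Their part in the result was not tested.

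For the other 6 genes in islets, the mean effects lay between -0.07 (Gclm, adjusted p 0.056) and 0.06 (Srxn1, adjusted p 0.18), and the 95% intervals stayed within -0.14 and 0.13. These small values depend on the scaling. Insulin left out moved the median of all genes to 0.17 on average, and to 0.48 at week 12 and 0.36 at week 16. Then 7 members were called, all higher, where 7881 of all 12376 genes were called higher. These were 91.5% of the called genes, against 43.1% as deposited. Median ratio scaling called 5, adding Txnrd1 (0.08), Srxn1 (0.09) and Gsr (0.08), where 5968 of all 12378 genes were called. Of those 5968 genes 3552 were higher (59.5%). Relative to the median of all genes, Srxn1 was at 0.07 as deposited and 0.08 with insulin left out. The call of Gclm hung on single libraries, since it passed in 15 of the 48 fits that left out 1 library.

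In chow islets 6 of the 8 genes changed over the weeks (F test), where 77.5% of all genes did. Gclm had the smallest adjusted p (5.6e-06), with week means from 17.2 FPKM at week 12 to 24.6 at week 24, and Srxn1 (0.0023) ran from 21.8 at week 8 to 16.5 at week 24. The other 4 were Gclc (0.0053), Nfe2l2 (0.021), Gsr (0.033) and Hmox1 (0.047). Hmox1 kept its call in 21 of 48 fits that left out 1 library, Gsr in 38 and Nfe2l2 in 47. No islet gene of the 8 passed the test for a change of the diet effect between weeks (4.25% of all genes did). An unadjusted p under 0.05 was reached by 0 of them and by 2774 of all 12378 genes. With insulin left out 5 passed the test, Gclm, Gsr, Nfe2l2, Txnrd1 and Srxn1, along with 7916 of 12376 genes.

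The diet effect differed between the tissues of the same mice for 6 of the 8 genes on the FPKM as deposited, all with the larger value in liver (limma on all 96 libraries, 34.0% of 9936 genes called higher in liver). The difference, liver minus islet, was 0.65 for Srxn1 (SE 0.076, adjusted p 1.6e-10), 0.50 for Nqo1 (SE 0.13), 0.48 for Hmox1 (SE 0.14), 0.45 for Gclc (SE 0.12), 0.40 for Nfe2l2 (SE 0.094) and 0.14 for Gclm (SE 0.054, adjusted p 0.032). Txnrd1 (0.03) and Gsr (0.05) did not pass. The difference for Gclm missed the threshold without the liver of CD407 (0.052), and was -0.01 under median ratio scaling. With insulin left out, Srxn1 (0.46) and Nqo1 (0.38) kept their calls, while Nfe2l2 (0.22), Hmox1 (0.28) and Gclc (0.27) did not, and Txnrd1 was called with the larger value in islets (-0.15). Txnrd1 was called in that direction under median ratio scaling too (-0.12). Of all called genes, 83.3% had the larger value in liver as deposited, 36.7% under median ratio scaling and 22.2% with insulin left out.

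**Figure D3:**
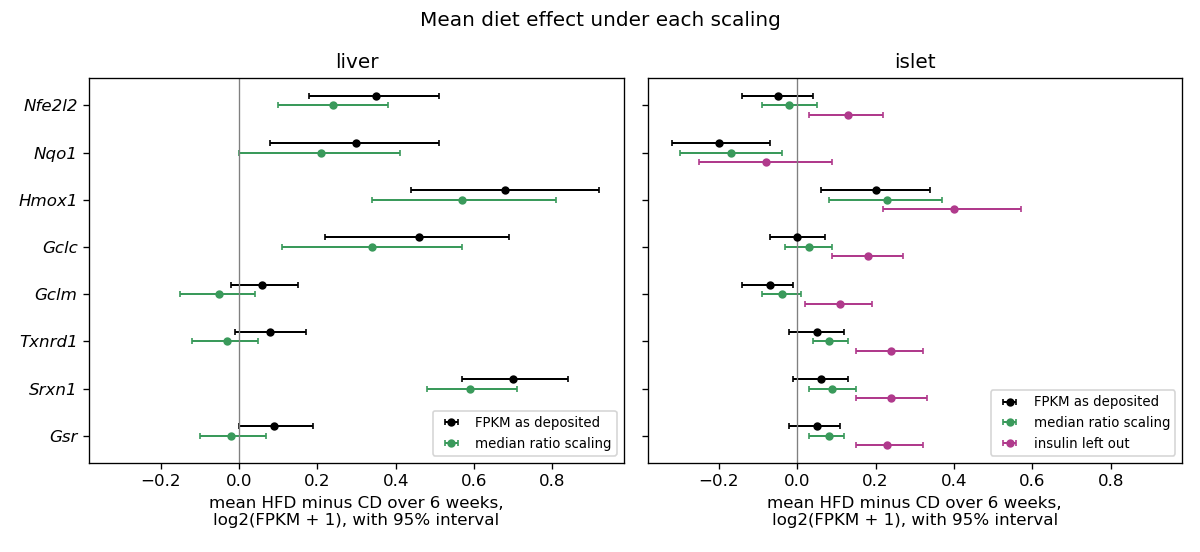
Mean difference between HFD and CD over the 6 weeks (horizontal axis, log2(FPKM + 1), points with 95% intervals) for the 8 genes (vertical axis) in liver and islet, with 1 colour per scaling of the libraries. In liver Srxn1, Hmox1, Gclc and Nfe2l2 lie above 0 under both scalings, while in islets most genes shift to the right with insulin left out, Srxn1 from 0.06 to 0.24.

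Counts over the lists of related genes stand against 35.8% of all genes called higher and 6.78% called lower in liver, and 16.6% and 22.0% in islets. Under median ratio scaling 1943 of 10879 genes were called higher and 2332 lower in liver. In islets 3552 of 12378 genes were called higher under median ratio scaling and 7881 of 12376 with insulin left out. Keap1, the repressor, was at 17.4 ± 2.22 FPKM in CD and 18.1 ± 2.78 in HFD liver (log2 difference 0.05, adjusted p 0.22), and Bach1, the competing repressor, at 4.93 ± 1.24 and 5.34 ± 1.26 (0.10, adjusted p 0.29). In islets neither passed (Keap1 -0.04, Bach1 -0.07), although Keap1 was called higher with insulin left out (0.14). Of 11 regulators 6 were higher in HFD liver and 0 lower. They were the small Maf genes Maff (0.67, adjusted p 0.00042) and Mafk (0.33), the related factor Nfe2l1 (0.28), Btrc (0.25) and Gsk3b (0.20), which take part in the Keap1-independent turnover of NRF2, and Sqstm1 (0.23), whose product p62 draws Keap1 into autophagy. Under median ratio scaling the call of Sqstm1 was lost (0.11) and Mafg was called lower (-0.14). In islets Mafg (-0.18) and Btrc (-0.25) were lower, but not with insulin left out (0.00 and -0.08). With insulin left out 8 of the 11 regulators were called higher in islets, against 0 as deposited.

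Other genes of glutathione and thioredoxin metabolism rose in part. Of 6 other glutathione genes tested in liver 4 were higher, the peroxidases Gpx3 (0.48), Gpx4 (0.46) and Gpx1 (0.24) and the synthetase Gss (0.15), of which Gpx1 (0.13) and Gss (0.04) lost their calls under median ratio scaling. In islets Gpx3, the secreted glutathione peroxidase, was lower by -0.94 (adjusted p 2.3e-14), was called in 4 weeks and was called lower under all 3 scalings. Gss (0.13), Gpx4 (0.13) and Gpx1 (0.11) were higher there under all 3, and Ggt1 was lower (-0.44) only as deposited. With insulin left out 6 of the 8 glutathione genes tested in islets were higher. Of 9 other thioredoxin and peroxiredoxin genes in liver, Prdx3 was higher (0.37) and Prdx4 lower (-0.29) under both scalings, while Txn1 (0.20), Prdx1 (0.16) and Prdx6 (0.16) fell to between 0.04 and 0.09 under median ratio scaling and lost their calls. Under that scaling 2 of the 9 were called lower in liver, against 1 as deposited. In islets Prdx6 (0.16) and Prdx1 (0.07) were higher under all 3 scalings. Of the 9 genes, 5 were higher in islets under median ratio scaling and 9 with insulin left out.

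NADPH feeds both systems. Of 6 genes for its supply Pgd (0.44), Taldo1 (0.35) and G6pdx (0.20) were higher in liver under both scalings. In islets Taldo1 was higher (0.10), and Tkt was lower (-0.09) only as deposited, its value being 0.09 with insulin left out. Of the 6 genes, 4 were higher in islets under median ratio scaling and 5 with insulin left out. Around Hmox1, the ferritin heavy chain Fth1, which stores the iron set free from heme, was higher in liver (0.31, adjusted p 2.4e-05) and in islets (0.25), where the light chain Ftl1 (0.25) and Blvrb (0.16) were higher too, under each scaling. Of 6 heme and iron genes, 4 were higher in islets under median ratio scaling and 6 with insulin left out. In liver the constitutive Hmox2 was lower (-0.12), and Blvrb (0.17) and Blvra (0.12), which convert biliverdin, were called higher as deposited but not under median ratio scaling (0.06 and 0.02). Under that scaling 2 of the 6 were called lower in liver, against 1 as deposited.

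Detoxifying enzymes went both ways. Of 17 tested in liver Gsta1 (1.15) and Cbr3 (0.57) were higher and Gsta2 (-1.08) and Gstp1 (-0.66) lower under both scalings, while Abcc3 (0.31) and Aox1 (0.27) were higher as deposited only. Median ratio scaling called 2 of the 17 higher and 4 lower. Cbr3 averaged 0.414 ± 0.109 FPKM in CD liver and 1.23 ± 0.802 in HFD liver, and was tested in 1 single week. It met the filter of 1 FPKM only through HFD libraries, so that its higher call is no independent result. Gsta1 and Gsta2 are near-identical copies, so the assignment of reads between them is uncertain. In islets 3 of 14 were higher (Cbr3 0.18, Cbr1 0.14, Ephx1 0.13) and 7 lower, with Ugt1a6a (-0.55) and Gstm1 (-0.35) each called in 3 weeks, along with Gsta3 (-0.34), Gsta4 (-0.26), Ptgr1 (-0.21), Aox1 (-0.24) and Gstp1 (-0.21). The calls of Aox1 (-0.13) and Gstp1 (-0.02) were lost with insulin left out. Gsta4 averaged 0.815 FPKM in CD islets and 0.6 in HFD islets, under the filter level of 1 FPKM, and was tested in 0 single weeks. Sod3, the extracellular superoxide dismutase, was higher in liver (0.78) and islets (0.41) under each scaling. Of the 4 superoxide dismutase and catalase genes, 3 were higher in islets under median ratio scaling and 3 with insulin left out. In liver Sod1 was lower (-0.14) under both scalings, and Sod2 (0.18) was higher as deposited only.

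Mice of the same diet and week also differed from each other, and these differences were compared gene by gene after the group mean had been subtracted (48 mice, 64 relations in all, two-sided permutation within groups, Benjamini-Hochberg over all 64). Such relations were common among all genes, so that nothing particular to the members is read from the counts. In liver 9 of 28 pairs of members passed, all positive, with r of 0.40 or more, a value reached by 10 of the member pairs and by 13.9% of all pairs of genes tested. Among those 9, the rank correlation did not pass for Nqo1 with Srxn1 (rho 0.30, adjusted permutation p 0.18), Nqo1 with Gclm (0.39, 0.073) and Gclm with Gsr (0.35, 0.1). Under median ratio scaling 4 of the 9 passed, and 1 other pair did with a negative sign, Nfe2l2 with Hmox1 (r -0.48, adjusted permutation p 0.046, against -0.29 as deposited). At r of 0.40 or more there were then 4 member pairs and 8.58% of all pairs. The closest pair was Gclc with Gsr, both genes of glutathione metabolism, at a Pearson r of 0.84 and a Spearman rho of 0.85 (permutation p 1e-05 for each, the smallest these permutations can give, adjusted 0.00016). The r was 0.83 in CD mice, 0.85 in HFD mice, 0.84 without the 2 mice farthest from the median of Gclc and 0.80 under median ratio scaling. Gclc with Srxn1 had r 0.60 (rho 0.55, permutation p 0.0002 and 0.00048, adjusted 0.0014 and 0.0031), and 0.58 without the 2 farthest mice. Nfe2l2 with Srxn1 had r 0.58 (rho 0.55, permutation p 0.00019 and 0.00029, adjusted 0.0014 and 0.0022), falling to 0.47 without the 2 farthest mice.

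**Figure D4:**
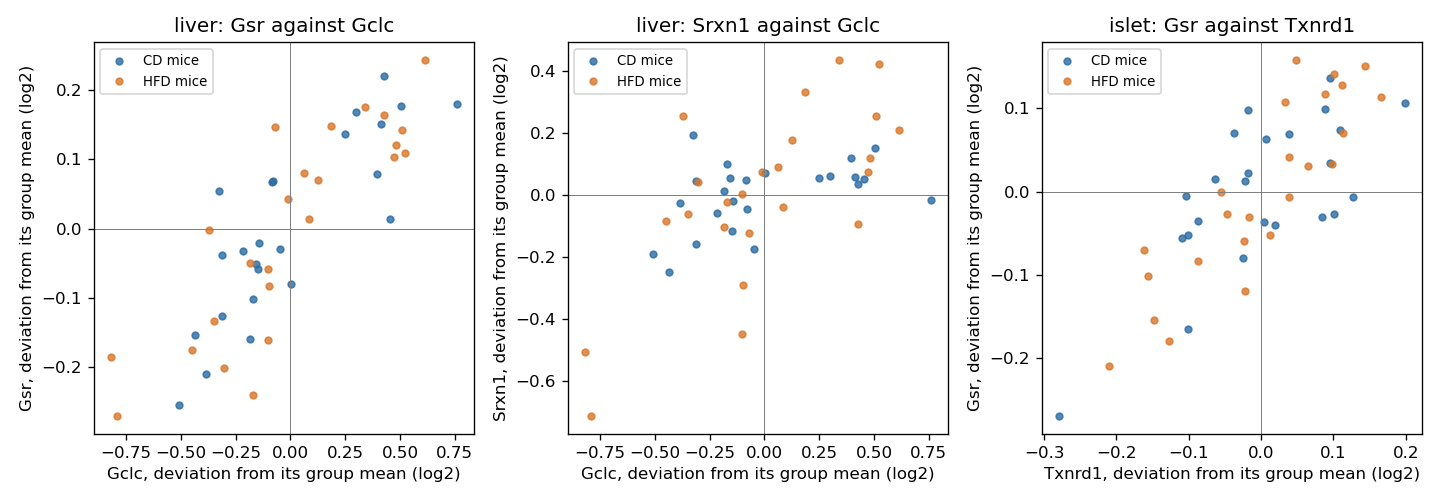
Deviation of each mouse from the mean of its diet and week, log2(FPKM + 1), for Gsr against Gclc and Srxn1 against Gclc in liver and Gsr against Txnrd1 in islets, with 1 point per mouse, CD in blue and HFD in orange. The points of Gsr and Gclc in liver follow a line in both diets (r 0.83 in CD, 0.85 in HFD).

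In islets 8 of 28 pairs passed, all positive, with r of 0.47 or more, a value reached by 11.8% of all pairs of genes. Under median ratio scaling 2 passed, Txnrd1 with Gsr and Gclm with Txnrd1, and 2.66% of all pairs reached that value. Txnrd1 with Gsr had r 0.80 (rho 0.77, permutation p 1e-05 for each, adjusted 0.00016) and 0.52 under that scaling, and r 0.73 without the 2 farthest mice. Gclm with Txnrd1 had r 0.79 (rho 0.79, permutation p 1e-05 for each, adjusted 0.00016) and 0.55 under that scaling, and r 0.77 without the 2 farthest mice. Between the islets and the liver of 1 mouse, 1 of 8 genes was related, Gclc, with a negative r of -0.39 (rho -0.35, permutation p 0.012 and 0.031, adjusted 0.047 and 0.099), -0.43 without the 2 farthest mice and -0.43 under median ratio scaling. Its rank correlation did not pass.

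The genes whose pattern over the 12 group means of liver was most like that of Srxn1 were Osbpl3 (Pearson r 0.98), Rufy4 (0.97), Arsb (0.97), Cidec (0.97), which encodes a lipid droplet protein, and Cd81 (0.97). Among the members Nfe2l2 came nearest, at r 0.78 and rank 750 of the 10879 genes, followed by Gclc (0.77) and Nqo1 (0.74). In islets the pattern of Nqo1 was most like that of Spock1 (0.83), Gfra4 (0.83), D430019H16Rik (0.83), Cd81 (0.82) and Ass1 (0.81), with no member above 0.02.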

How the data were processed

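Poly(A) RNA of 48 islet and 48 liver samples was sequenced on a BGISEQ-500 instrument by the authors. FPKM values of each library, rounded to 2 decimals, were deposited by the authors, and their processing notes name HISAT2 2.0.4, Bowtie2 2.2.5, RSEM 1.1.12, DESeq2 and GRCm38.p5 without a role. Group means, fold changes, p-values and q-values of the authors' comparisons and cluster assignments stand in the same table and were not used. Samples were grouped by the tissue, diet, week and mouse of their labels. The 8 genes and all gene lists were chosen with earlier results of these data known, so that no count over them is independent evidence.

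Values were transformed to log2(FPKM + 1), and genes reaching 1 FPKM in 4 or more libraries (3 in a week from which 1 was left out, and 4 of each tissue for both tissues together) were tested with limma 3.58.1 in R 4.3.3, using its trended prior and its robust option. Differences on this scale understate the change of low genes. Each week of a tissue was fitted alone, and the mean effect and F tests used 12 groups per tissue. P-values were adjusted by Benjamini-Hochberg over all genes tested, and an adjusted p under 0.05 was called. The fits were tested on simulated data. Islets and liver carry the same mouse numbers because they come from the same mouse.

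Named genes were all members, list genes called in the mean effect or in at least 3 weeks, Keap1, Bach1, and the 5 genes most like the member with the smallest p of its mean effect in each tissue. Insulin left out means that Ins1 and Ins2 were removed and each islet library was rescaled to its former total. Correlations used 100000 permutations within groups. Promoter windows came from RefSeq (GRCm38.p6), and motifs were searched with Python 3.11.15.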

Additional observations from a re-analysis of the deposited data

Results flagged for a closer look

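Among 192 groups of 4 mice (8 genes, 24 groups), 13 (6.77%) held 1 mouse whose gap to the nearest other, divided by the range of the group, exceeded Dixon's 95% critical value for 4 samples, where chance gives about 1 in 20. In liver, Gclc stood high in CD501 (71.1 FPKM, others 46.8 to 50.2), CD606 (85.5, others 53.4 to 58.7) and HFD616 (97.0, others 67.7 to 72.7). CD208 was low in liver for Nfe2l2 (23.0, others 25.8 to 26.4) and Hmox1 (4.48, others 7.26 to 7.6), and CD205 was high for Gclm (65.5, others 57.6 to 58.8).

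In islets, Nfe2l2 was high in CD205 (15.4, others 13.5 to 13.8) and low in HFD511 (11.6, others 17.3 to 17.9), Hmox1 was high in HFD614 (8.64, others 4.77 to 5.08), and Gclc was low in CD501 (9.18, others 10.3 to 10.4). Txnrd1 was low in CD304 (28.5, others 37.1 to 37.3), Srxn1 was low in HFD418 (18.0, others 19.7 to 20.1) and Gsr was high in CD203 (15.0, others 13.6 to 13.7). CD501 was high for Gclc in liver and low in islets.

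The diet effect differed between tissues by a tested difference, liver minus islet, for Srxn1 (0.65), Nqo1 (0.50), Hmox1 (0.48), Gclc (0.45), Nfe2l2 (0.40) and Gclm (0.14). Of these, Srxn1 and Nqo1 were called under both other scalings.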

How the results depend on the processing

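The counts of members called in the mean effect in liver, 5 of 8, and in the difference between tissues, 6 of 8, stayed between 5 and 6 in the fits without 1 library. Those of the islet mean effect (2) ranged from 2 to 3, of the weekly calls from 6 to 9 in liver (8) and from 0 to 2 in islets (0), of the F test between weeks from 0 to 2 in liver (0) and at 0 in islets (0), of the F test over the weeks in CD from 1 to 3 in liver (1) and from 3 to 7 in islets (6), and of liver against islet at 6 (6). Weekly calls were often lost with 7 libraries, which also leaves fewer samples in the fit. A minimum log2 change of 1 left 0 calls in the mean effect of either tissue and in the difference between tissues, 2 weekly calls in liver and 3 in liver against islet. Without the filter on low FPKM the weekly calls in liver were 4. Median ratio scaling gave 5 calls in the islet mean effect, 2 in the liver F test between weeks and 7 pairs of members related across mice (17 as deposited). It turned the liver mean effects of Gclm (-0.05), Txnrd1 (-0.03) and Gsr (-0.02) and the tissue differences of Gclm (-0.01), Txnrd1 (-0.12) and Gsr (-0.10) to the other sign. Insulin left out gave 15 weekly calls, 7 calls in the mean effect and 5 in the F test between weeks in islets and 3 calls in the difference between tissues. It turned the islet effects of Nfe2l2 (0.13) and Gclm (0.11) and the tissue differences of Gclm (-0.04), Txnrd1 (-0.15) and Gsr (-0.14). The islet effect of Gclc, near 0, took values from -0.01 to 0.02 without 1 library.

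With the mouse as replicate block, since islets and liver of a mouse share its number, 6 members were again called in the difference between tissues and 6 in liver against islet, and no call changed (consensus correlation 0.061). Within a tissue and between diets no paired analysis was possible because each mouse had 1 diet and 1 week. Without counts, the depth behind each FPKM is unknown, and low values such as those of Nqo1 carry the widest relative error of rounding.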
